A study of Homo sapiens with 6 samples.

Results

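Intermediate filament genes were examined in cells of SW403, an established human colon adenocarcinoma line, with and without knockdown of IRS2. The set holds 10 genes, chosen by name: the keratin genes KRT7, KRT8, KRT18, KRT19, KRT20, KRT23 and KRT80, the vimentin gene VIM, the nestin gene NES and the alpha-internexin gene INA. All 10 have a row in the count table, which covers 26490 gene symbols, and 8 of them passed the filter on low counts that left 13832 genes for testing. Messenger RNA was measured by RNA-seq in 3 control libraries (genotype given as WT, normal IRS2 expression) and 3 IRS2 knockdown libraries. Both groups were grown in DMEM with 10% serum for 24 h, with no treatment. The labels conflict on the second group: titles and genotype call it a knockdown, while the sample descriptions and count columns write IRS2KO. How IRS2 was lowered, and whether the 3 biological replicates of a group come from separately made lines, is not stated in the labels, so p-values measure the spread between these cultures.

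Intermediate filaments are rope-like polymers that give a cell mechanical strength. In epithelial cells they are built of keratins, and each keratin filament pairs an acidic type I keratin with a basic type II keratin. KRT8 (type II) and KRT18 (type I) form the basic filament of simple epithelia such as the gut lining, where KRT19 and KRT20 are further type I partners and KRT20 marks differentiated surface cells. Vimentin is the filament protein of mesenchymal cells, nestin is found in neural and other progenitors, where it assembles together with vimentin, and alpha-internexin is a filament protein of neurons. Desmosomes and some plakins anchor keratin filaments to the cell surface.

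Total counts ran from 11816973 to 12585013 in the control libraries and from 14329348 to 18114656 in the knockdown libraries, so every knockdown library was deeper. Levels are given as CPM, the counts of a gene per 1000000 of a library total scaled by its TMM factor, and as CPM per kb of transcript where genes are compared with each other. IRS2 itself was at 32, 34.6 and 31.8 CPM in control replicates 1, 2 and 3 and at 13.1, 12.4 and 12.1 CPM in knockdown replicates 1, 2 and 3, 2.62-fold lower (log2 fold change -1.39 ± 0.07 SE, edgeR adjusted p 3.12e-11). Of 9 markers of colon epithelium, 4 had enough reads to be tested, and CDX2, with 74.6 to 86.4 CPM, was the highest. CDX1 had 0 counts in all 6 libraries, and CDH1, the E-cadherin gene, LGALS4, GPA33 and CDH17 had at most 11 counts in any library, so much of the marker set of colon epithelium was absent from these cells. These levels go against the labelled cell type in part, and the identity of the line was not tested. Of the 4 markers of nervous tissue TUBB3 alone was tested. It was at 101 to 115 CPM, above CDX2, and made up nearly all of that list's sum of 102 to 115 CPM. The endothelial and leukocyte lists summed to at most 1.24 CPM. The 7 fibroblast markers summed to 27.3, 10.4 and 8.85 CPM in the control libraries and 5.85 to 7.40 CPM in the knockdown libraries, with control replicate 1 highest. In a bulk culture, fewer cells of a type and less RNA per cell cannot be told apart.

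Upstream sequences were given by RefSeq (GRCh38.p14) for 5 of the 10 genes: KRT8, KRT20, VIM, NES and INA. The 250 bases before the start are shown for NES, which rose in knockdown, for INA and VIM, which fell, and for KRT20, which had no read. Capitals mark matches, on either strand, to 4 motifs: the AP-1 motif TGANTCA, the E-box CAGGTG of the snail and zeb factors, the Sp1 motif GGGCGG and TTTAT, the core of caudal-type (CDX) sites.
NES (chr1:156677408-156677657, minus strand): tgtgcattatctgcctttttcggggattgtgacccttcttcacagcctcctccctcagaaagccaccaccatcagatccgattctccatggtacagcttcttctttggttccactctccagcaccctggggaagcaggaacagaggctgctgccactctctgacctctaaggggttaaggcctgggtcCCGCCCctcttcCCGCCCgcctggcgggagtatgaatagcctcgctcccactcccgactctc
INA (chr10:103276888-103277137, plus strand): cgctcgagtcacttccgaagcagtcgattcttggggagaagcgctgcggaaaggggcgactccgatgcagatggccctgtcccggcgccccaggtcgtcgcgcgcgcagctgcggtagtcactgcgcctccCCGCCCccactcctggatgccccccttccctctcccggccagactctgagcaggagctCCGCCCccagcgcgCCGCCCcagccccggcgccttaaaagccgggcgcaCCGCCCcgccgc
VIM (chr10:17227991-17228240, plus strand): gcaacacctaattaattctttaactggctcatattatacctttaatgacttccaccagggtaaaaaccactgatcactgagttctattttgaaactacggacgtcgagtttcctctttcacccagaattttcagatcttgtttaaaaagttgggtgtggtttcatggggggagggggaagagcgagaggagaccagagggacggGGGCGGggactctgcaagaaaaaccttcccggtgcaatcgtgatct
KRT20 (chr17:40885243-40885492, minus strand): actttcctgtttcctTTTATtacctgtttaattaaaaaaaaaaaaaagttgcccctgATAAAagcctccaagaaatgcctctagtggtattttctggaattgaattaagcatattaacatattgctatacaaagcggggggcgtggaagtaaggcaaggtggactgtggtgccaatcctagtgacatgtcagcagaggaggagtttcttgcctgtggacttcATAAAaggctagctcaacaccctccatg
The Sp1 motif occurred 2 times in the NES window, 4 times in that of INA and 1 time in that of VIM, and 42.3% of the 27305 windows of this length hold it. TTTAT occurred 3 times in the KRT20 window and not in the other 3 shown, and 33.7% of all windows hold it. Neither TGANTCA, held by 6.60% of windows, nor CAGGTG, held by 17.5%, was found in any of the 5. The windows of INA and NES have a GC content of 72.8% and 58.0%, against 41.2% for KRT20. Motif matches are letters only, and the gene that rose and the genes that fell both carry the Sp1 letters.

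Across the set, NES rose in knockdown, while KRT19, KRT80, VIM and INA fell and KRT8, KRT18 and KRT23 did not pass the test. Thus 5 of the 8 tested genes passed the threshold, set at 0.05 for the adjusted p of the quasi-likelihood F-test in edgeR, against 38.5% of all tested genes. By direction, 1 was higher (19.3% of all tested genes were) and 4 were lower (19.2%). The even split over all genes, 2676 higher and 2653 lower, became 2206 higher and 3198 lower with library size alone as the scaling. The same 5 genes had control and knockdown values that did not overlap, as did 47.6% of all tested genes. The median log2 fold change was -0.09 over the 8 tested genes and -0.00 over all tested genes. With so many genes called in the whole table, these counts alone do not set the group apart.

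**Figure D1:**
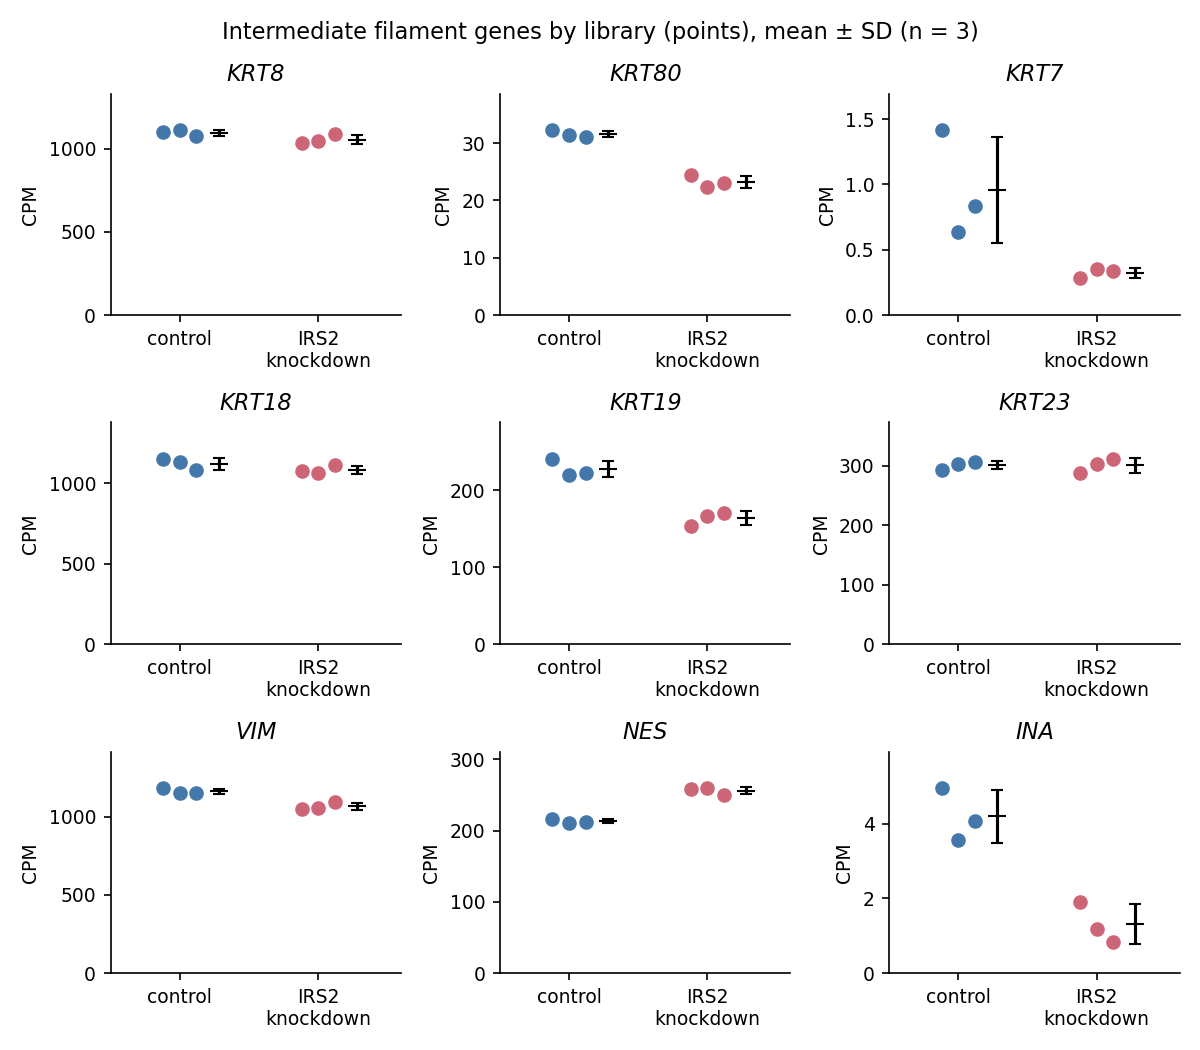
CPM (linear axis from 0) of 9 of the 10 genes in each library, with control in blue and IRS2 knockdown in red, and the mean ± SD of 3 libraries in black beside the points. KRT19, KRT80, VIM and INA sit lower in all 3 knockdown libraries, NES sits higher, and the points of KRT8, KRT18 and KRT23 overlap between groups; KRT20 had no read and is left out.

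The core pair of simple epithelial keratins was abundant and nearly level between groups. KRT8 (chromosome 12, 53290971 to 53343738 on the minus strand, GRCh37) was at 1100.3, 1109 and 1075 CPM in control replicates 1, 2 and 3 and at 1031, 1045 and 1085 CPM in knockdown replicates 1, 2 and 3. Knockdown replicate 3 lay inside the control range, and the difference did not pass the test (log2 fold change -0.06 ± 0.03 SE, edgeR adjusted p 0.132). KRT18 (chromosome 12, 53342655 to 53346690 on the plus strand) was at 1147, 1133 and 1079 CPM in control replicates 1, 2 and 3 and at 1076, 1062 and 1111 CPM in knockdown replicates 1, 2 and 3. Here too the groups overlapped (log2 fold change -0.05 ± 0.03 SE, edgeR adjusted p 0.209). Both differences depend on the scaling of the libraries. With library size alone in place of TMM factors, KRT8 had a log2 fold change of -0.09 (edgeR adjusted p 0.0114) and KRT18 of -0.08 (edgeR adjusted p 0.0262), and KRT8 also passed without knockdown replicate 3 (-0.08, edgeR adjusted p 0.0204). The neighbouring genes overlap by 1084 bases on opposite strands in the annotation, and both have many processed pseudogenes; the strand setting of the counting is not given in the sources used here. Pseudogene rows in the table, KRT8P41 and KRT18P55, held 10 and 15 counts over all 6 libraries.

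The ratio of the partners differed between groups by less than its spread. The ratio of KRT18 to KRT8, in CPM per kb, was 1.32, 1.29 and 1.27 in control and 1.32, 1.28 and 1.29 in knockdown, a mean of 1.29 ± 0.0245 against 1.3 ± 0.0178 (SD, n = 3 each), and the groups overlapped. Summed over the set, the ratio of type I to type II keratins was 1.79, 1.74 and 1.74 in control and 1.71, 1.7 and 1.71 in knockdown. This ratio was lower in all 3 knockdown libraries. Without KRT19 the ratio was 1.51, 1.49 and 1.48 in control and 1.52, 1.5 and 1.51 in knockdown, with overlapping groups, but in CPM, not per kb, it was 1.27, 1.26 and 1.25 against 1.29, 1.28 and 1.28, with no overlap. Over all 28 type I and 26 type II keratin genes with a transcript length the ratio was 0.833, 0.829 and 0.807 in control and 0.802, 0.799 and 0.81 in knockdown, with overlapping groups. Exact two-sided permutation tests over the 6 libraries gave p = 0.70 for KRT18 to KRT8 and p = 0.20 for all keratins, and 3 libraries against 3 allow no p under 0.1.

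KRT19 and KRT23, type I keratins of the chromosome 17 cluster, parted. KRT19 (chromosome 17, 39679869 to 39684560 on the minus strand), the smallest keratin, which lacks most of the tail domain of other keratins, was at 240.2, 220.2 and 223 CPM in control replicates 1, 2 and 3 and at 154, 166 and 171 CPM in knockdown replicates 1, 2 and 3. Every knockdown library was lower than every control library. It fell 1.39-fold, from 228 ± 10.9 to 164 ± 8.92 CPM (means of 3 libraries ± SD), with a log2 fold change of -0.47 ± 0.04 SE (edgeR adjusted p 4.35e-08). The fall held at -0.43 without control replicate 1, which had the highest value. KRT23 (chromosome 17, 39078952 to 39093898 on the minus strand), a keratin with expression reported in colorectal tumours, was at 293, 303 and 307 CPM in control replicates 1, 2 and 3 and at 287, 304 and 311 CPM in knockdown replicates 1, 2 and 3. Its groups overlapped almost entirely (log2 fold change -0.00 ± 0.03 SE, edgeR adjusted p 0.974), and the sign of so small a difference changed with the scaling. KRT20 (chromosome 17, 39032141 to 39041494 on the minus strand), the differentiation keratin of the colon, had 0 counts in all 6 libraries. Over 86473081 counts this allows a level of at most 0.0348 CPM by the limit of 3 counts, which covers counting error only.

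The type II keratins KRT80 and KRT7 were far less abundant than KRT8. KRT80 (chromosome 12, 52562780 to 52585798 on the minus strand), a keratin of filaments near desmosomes, was at 32.2, 31.4 and 31.1 CPM in control replicates 1, 2 and 3 and at 24.4, 22.3 and 23 CPM in knockdown replicates 1, 2 and 3. The groups were well apart, and KRT80 fell 1.36-fold, from 31.6 ± 0.555 to 23.2 ± 1.07 CPM (means of 3 libraries ± SD), with a log2 fold change of -0.45 ± 0.06 SE (edgeR adjusted p 1.34e-05). KRT7 (chromosome 12, 52626304 to 52645970 on the plus strand), typical of glandular ducts and low in the colon, was counted 18, 8 and 10 times in control replicates 1, 2 and 3, and 4, 6 and 6 times in those with knockdown. The knockdown values were all lower, at 0.281 to 0.355 CPM against 0.633 to 1.41 CPM, but KRT7 was too low for the main test. Without the filter its log2 fold change was -1.52 ± 0.48 SE (edgeR adjusted p 0.00681), while the Wald test of DESeq2 gave an adjusted p of 0.0802. KRT7 shares 2887 bases with the KRT86 gene in the annotation, on the same strand.

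The non-keratin genes moved in both directions. VIM (chromosome 10, 17270240 to 17279592 on the plus strand) was at 1179, 1153 and 1148 CPM in control replicates 1, 2 and 3 and at 1050.2, 1051 and 1092 CPM in knockdown replicates 1, 2 and 3. The lowest control library lay above the highest knockdown library, and VIM fell by a small amount, 1.09-fold (log2 fold change -0.12 ± 0.03 SE, edgeR adjusted p 0.00117). NES (chromosome 1, 156638555 to 156647199 on the minus strand) was at 216, 210.4 and 212 CPM in control replicates 1, 2 and 3 and at 259, 259 and 249.9 CPM in knockdown replicates 1, 2 and 3. It rose 1.2-fold, from 213 ± 2.85 to 256 ± 5.15 CPM (means of 3 libraries ± SD), with a log2 fold change of 0.26 ± 0.03 SE (edgeR adjusted p 2.44e-06), the only rise in the set. INA (chromosome 10, 105036895 to 105050103 on the plus strand) was at 4.95, 3.56 and 4.09 CPM in control replicates 1, 2 and 3 and at 1.9, 1.18 and 0.841 CPM in knockdown replicates 1, 2 and 3. It had the largest fall of the set, 3.28-fold (log2 fold change -1.72 ± 0.25 SE, edgeR adjusted p 2.33e-05), at 15 to 63 counts per library. All 3 knockdown libraries were lower than every control library. INA shares 468 bases with the NT5C2 gene in the annotation, on the opposite strand, and NT5C2 held 597 to 846 counts per library. The part of this overlap in the counts of INA was not tested.

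Fibroblasts also express vimentin, and the summed level of their 7 markers was lower in every knockdown library and highest in control replicate 1. Most of that sum was COL1A1, at 15.2 CPM in control replicate 1, 5.59 and 5.70 CPM in the other control libraries and 3.67 to 4.29 CPM in the knockdown libraries. Of the 3 markers tested COL1A1 and COL3A1 fell and PDGFRB did not pass (edgeR adjusted p 0.609), and COL1A2, COL3A1 and PDGFRB overlapped between groups. Without that library VIM had a log2 fold change of -0.11 (edgeR adjusted p 0.00776) and INA of -1.58 (edgeR adjusted p 0.000436). The part of these markers in the fall of VIM was not tested. VIM overlaps its antisense gene VIM-AS1, which held 22 to 37 counts per library.

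Per length of transcript, the set spanned the table from near its top to 0. In control, KRT18 was at 792 ± 25.5 CPM per kb, KRT8 at 614 ± 9.85 and VIM at 538 ± 7.83 (SD, n = 3 each). These levels ranked 64, 82 and 99 among 24386 genes with a length, with VIM below both members of the epithelial pair. KRT19 followed at 164 ± 7.83, KRT23 at 136 ± 3.16 and NES at 38.2 ± 0.512 CPM per kb. KRT80 was at 8.15 ± 0.143, INA at 1.29 ± 0.215 and KRT7 at 0.591 ± 0.249 CPM per kb. In each group the ranges of neighbours in this order did not overlap. The order changed at 1 place: KRT19 stood above KRT23 in control and below it in knockdown, at 118 ± 6.42 against 136 ± 5.49 CPM per kb. This change depends on the length scaling. In CPM, not per kb, KRT19 was below KRT23 in both groups, at 228 against 301 CPM in control and 164 against 301 CPM in knockdown (means). Transcript lengths come from 1 canonical transcript a gene, so the order between genes also rests on that choice.

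**Figure D2:**
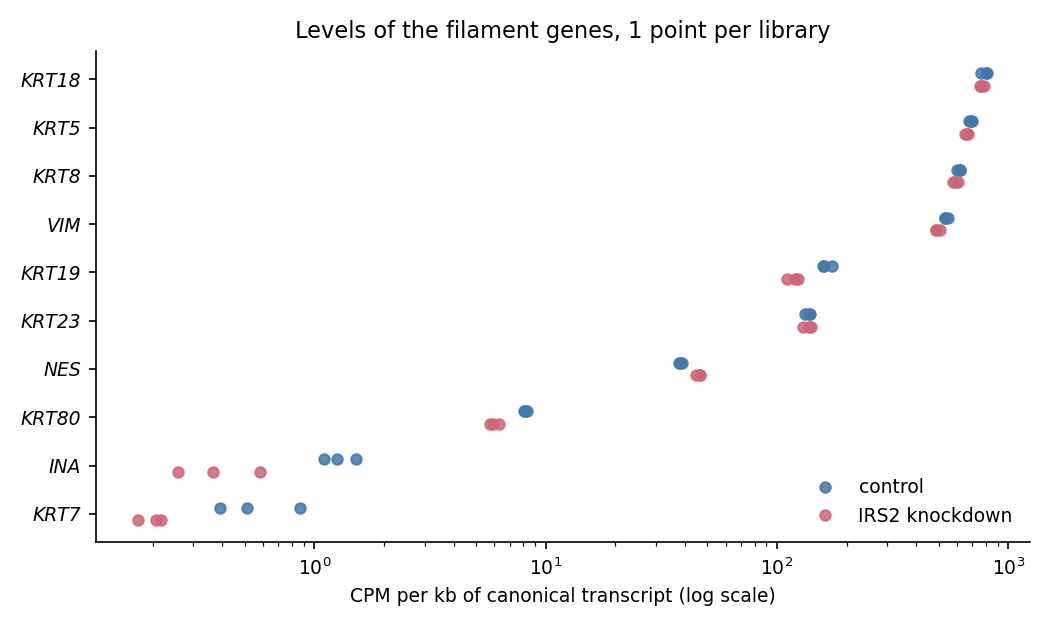
CPM per kb of canonical transcript (log axis) in each library, control in blue and IRS2 knockdown in red, for the 9 genes with reads and for KRT5. KRT18, KRT5, KRT8 and VIM lie close together at the top, and KRT19 moves from above KRT23 in control to below it in knockdown. In CPM, not per kb, KRT19 is below KRT23 in both groups.

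Other keratins were then counted from a list of 25 epithelial keratins outside the set, of which 8 were tested. KRT6B rose, KRT10 and KRT222 fell, and 5 did not pass (median log2 fold change -0.10), where 19.3% of all tested genes rose and 19.2% fell. KRT10, a keratin of the upper epidermis, was at 29.6 ± 0.906 CPM among control and 25.7 ± 2.99 CPM among knockdown libraries, as mean ± SD of 3 (edgeR adjusted p 0.0465), and it lost its call in 9 alternatives, 5 of which left out a library. KRT222, at 5 to 13 counts per library, lost its call without control replicate 2 or 3 or knockdown replicate 2 or 3 (edgeR adjusted p 0.0641 to 0.110). KRT222 also passed the filter through control libraries alone, where it was higher, so a fall was the only call open to it. KRT6B, KRT222 and KRT5 were named after their values were seen. KRT6B, a keratin of wounded epidermis, rose from 3.96 ± 0.677 to 6.71 ± 0.753 CPM (means of 3 libraries ± SD), with a log2 fold change of 0.76 ± 0.16 SE (edgeR adjusted p 0.000826); its near-identical copies KRT6A and KRT6C make its counts uncertain. KRT5, the type II keratin of basal epidermal cells, was at 1539 ± 25.9 CPM among control and 1479.5 ± 22.1 CPM among knockdown libraries, as mean ± SD of 3 (edgeR adjusted p 0.0877), above KRT8 in CPM per kb. Its call depended on scaling: with library size alone its log2 fold change was -0.09 (edgeR adjusted p 0.00659).

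Among 23 keratins of hair and the inner root sheath, 9 were tested, 3 rose and 2 fell (median log2 fold change 0.03), and in DESeq2's Wald test 1 rose; of all tested genes 19.3% rose and 19.2% fell. The other 2 that rose, KRT32 and KRT38, were named after their values were seen, and KRT38, at 8 to 25 counts per library, did not pass without any one of 5 libraries, all but knockdown replicate 2 (edgeR adjusted p 0.0565 to 0.117). KRT38 could pass the filter only with knockdown libraries, where it was higher, so its place among the rises adds no support. KRT81, a hair keratin, was at 31.7, 31.2 and 29.8 CPM in control replicates 1, 2 and 3 and at 14.3, 13.5 and 14.7 CPM in knockdown replicates 1, 2 and 3. All knockdown libraries were at under 15 CPM, and KRT81 fell 2.18-fold (log2 fold change -1.12 ± 0.07 SE, edgeR adjusted p 3.89e-10), while KRT86, named after its values were seen, had a log2 fold change of -0.88. KRT81 and KRT86 are near-identical copies, so their separate values are uncertain. KRT71, an inner root sheath keratin, rose from 11.4 ± 0.631 to 14.5 ± 0.525 CPM (means of 3 libraries ± SD), with a log2 fold change of 0.34 ± 0.09 SE (edgeR adjusted p 0.0049), and had an adjusted p of 0.0602 in DESeq2's Wald test. Of 9 other cytoplasmic filament genes 4 were tested. The neurofilament genes NEFL and NEFM fell, and SYNM, the synemin gene, and BFSP1 did not pass (median log2 fold change of the 4, -0.70). NEFL, named after its values were seen as was NEFM, was at 5.34, 6.33 and 5.01 CPM in control replicates 1, 2 and 3 and at 1.76, 1.83 and 1.68 CPM in knockdown replicates 1, 2 and 3. It fell 3.16-fold (log2 fold change -1.66 ± 0.19 SE, edgeR adjusted p 9.34e-07) and NEFM 2.57-fold (log2 fold change -1.36 ± 0.16 SE, edgeR adjusted p 2.01e-06). SYNM was at 32.6 ± 1.44 CPM among control and 33.1 ± 2.92 CPM among knockdown libraries, as mean ± SD of 3 (edgeR adjusted p 0.814).

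**Figure D3:**
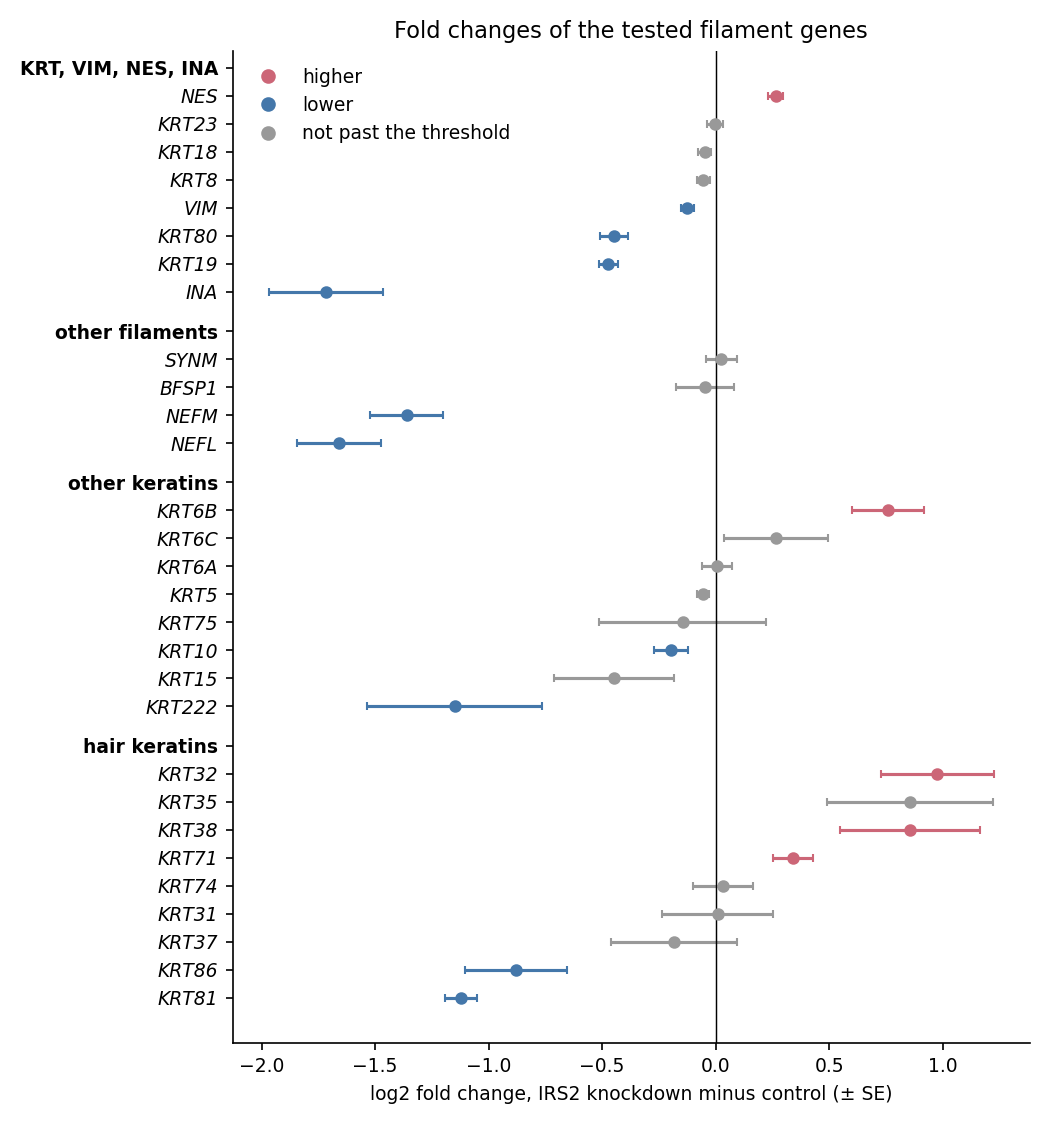
Log2 fold change, IRS2 knockdown minus control, with its SE, for each tested gene of the set, of the other cytoplasmic filaments, of the other epithelial keratins and of the hair keratins; red and blue mark genes past the threshold. INA, NEFL and NEFM lie between -1.72 and -1.36, and the most abundant keratins lie close to 0.

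In the plakin and desmosome lists, 5 of 7 plakin genes rose and 4 of 7 tested desmosome genes fell, where 19.3% of all tested genes rose and 19.2% fell. Not every plakin anchors keratin filaments. All 7 plakin genes were tested: 5 rose, 1 fell and PPL did not pass, with a median log2 fold change of 0.30. EVPL, the envoplakin gene, was at 46, 44.7 and 45.7 CPM in control replicates 1, 2 and 3 and at 59.3, 57.1 and 55.6 CPM in knockdown replicates 1, 2 and 3. It rose 1.26-fold (log2 fold change 0.33 ± 0.05 SE, edgeR adjusted p 2.23e-05). DST, the dystonin gene, rose from 58.7 ± 8.79 to 73.7 ± 9.48 CPM (means of 3 libraries ± SD), with a log2 fold change of 0.32 ± 0.09 SE (edgeR adjusted p 0.0058), but its groups overlapped and without control replicate 1 its edgeR adjusted p was 0.0580. PLEC, DSP, MACF1 and EPPK1 were named after their values were seen. PLEC, which encodes plectin, the linker of filaments to many structures, rose 1.2-fold (log2 fold change 0.26 ± 0.04 SE, edgeR adjusted p 1.6e-05), and DSP, which encodes desmoplakin, the desmosomal plakin, rose 1.24-fold (log2 fold change 0.31 ± 0.05 SE, edgeR adjusted p 0.000112). MACF1, the gene of a plakin that links actin and microtubules, rose 1.23-fold (log2 fold change 0.30 ± 0.06 SE, edgeR adjusted p 0.000573). Knockdown replicate 3 was the lowest of its group for PLEC, DSP, MACF1, EVPL and DST, and for MACF1 it lay just above the highest control library, at 298 against 297 CPM. EPPK1, the epiplakin gene, fell 2.5-fold from a low level (log2 fold change -1.32 ± 0.22 SE, edgeR adjusted p 8.23e-05). After a correction for length, 5 plakin genes were higher and 1 lower, as before, and EVPL had a log2 fold change of 0.32. In DESeq2's Wald test 4 were higher and 1 lower. With a mean of at least 50 counts required, 5 were higher and 0 lower.

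Of 12 other desmosome genes 7 were tested; 4 fell and 0 rose (median log2 fold change -0.12). DSC3, a desmocollin of stratified epithelia, was at 17.8, 19.3 and 20.7 CPM in control replicates 1, 2 and 3 and at 6.04, 6.74 and 6.56 CPM in knockdown replicates 1, 2 and 3. It fell 2.98-fold (log2 fold change -1.57 ± 0.10 SE, edgeR adjusted p 3.89e-10). DSC2, the desmocollin of simple epithelia, fell from 12.7 ± 1.64 to 8.6 ± 0.394 CPM (means of 3 libraries ± SD), with a log2 fold change of -0.56 ± 0.11 SE (edgeR adjusted p 0.000399). JUP, which encodes plakoglobin, and PKP2, which encodes plakophilin 2, were named after their values were seen. JUP fell 1.22-fold (edgeR adjusted p 0.000659) and PKP2 1.09-fold (edgeR adjusted p 0.0185), but PKP2 did not pass without control replicate 2, control replicate 3 or knockdown replicate 2 (edgeR adjusted p 0.149, 0.0552 and 0.0511). Over the alternatives the number of lower desmosome genes ran from 3, in DESeq2's Wald test and 4 other fits, to 7, with library size alone, and 1 gene was higher in each of the 3 fits that left out a control library. Of 8 genes that act on filament organisation or turnover, 1 passed, against 38.5% of all tested genes. FAM83H, which encodes a protein that recruits casein kinase 1 to keratin filaments, rose from 53.4 ± 2.62 to 72.1 ± 2.42 CPM (means of 3 libraries ± SD), with a log2 fold change of 0.43 ± 0.05 SE (edgeR adjusted p 1.01e-06).

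In the nuclear lamina, the filament layer under the nuclear envelope, 2 of 9 genes rose and 3 fell (median log2 fold change -0.07). Of all tested genes 19.3% rose and 19.2% fell, so these counts alone do not set the lamina genes apart. LBR, the lamin B receptor gene, rose from 205 ± 1.66 to 246 ± 5.69 CPM (means of 3 libraries ± SD), with a log2 fold change of 0.26 ± 0.03 SE (edgeR adjusted p 3.29e-06), and LMNB1, the lamin B1 gene, rose 1.12-fold (edgeR adjusted p 0.000565). LEMD3 and BANF1, genes of proteins bound to the lamina and chromatin, fell 1.27-fold and 1.14-fold (edgeR adjusted p 0.00109 and 0.000967). LMNB2, the lamin B2 gene, named after its values were seen, fell 1.07-fold (edgeR adjusted p 0.011), opposite to LMNB1. It did not pass without control replicate 2 or knockdown replicate 1 (edgeR adjusted p 0.0732 and 0.0519). LMNA was at 816 ± 13.7 CPM among control and 801 ± 17.4 CPM among knockdown libraries, as mean ± SD of 3 (edgeR adjusted p 0.48).

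**Figure D4:**
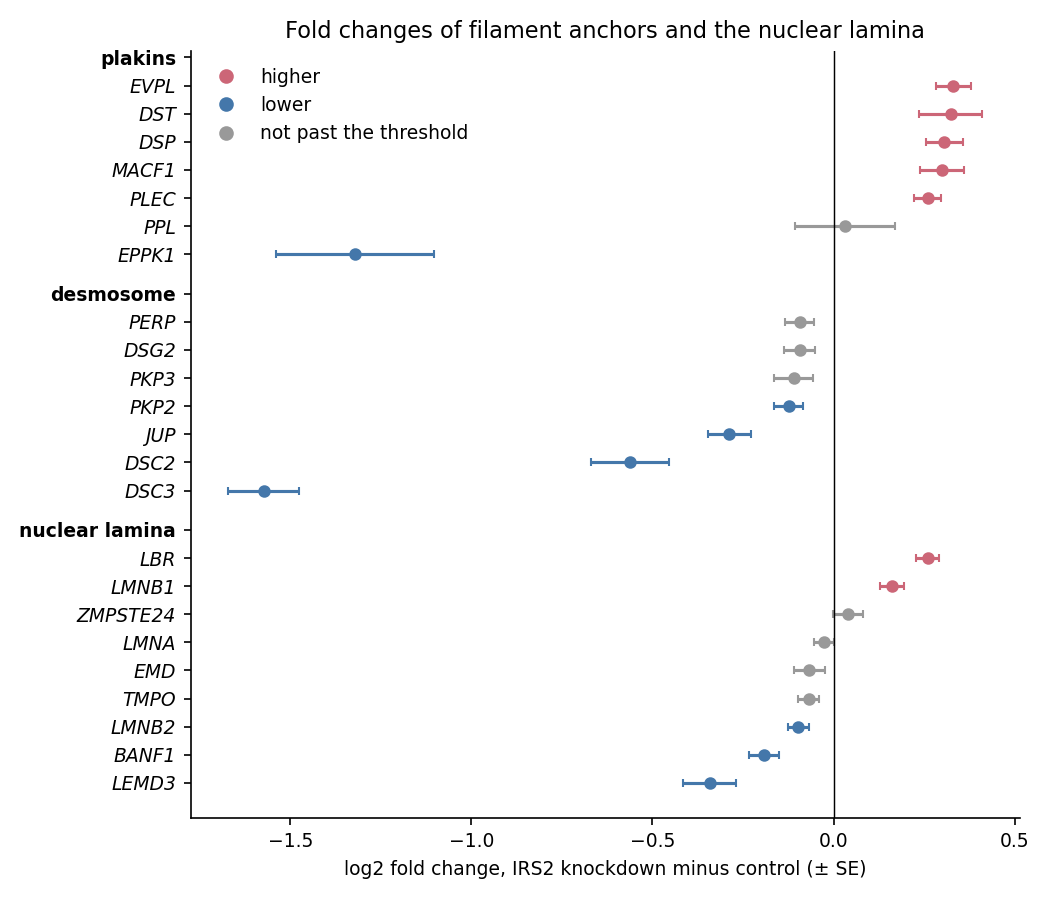
Log2 fold change, IRS2 knockdown minus control, with its SE, for the tested genes of the plakin, desmosome and nuclear lamina lists; red and blue mark genes past the threshold. 5 plakin genes lie between 0.26 and 0.33, and the 7 tested desmosome genes all lie below 0.

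Marker lists that go with the non-keratin filaments were split. Of all tested genes 19.3% rose and 19.2% fell, and these shares are the background for each list here. Of 16 mesenchymal genes 14 were tested, 5 rose and 6 fell (median log2 fold change -0.12). Of the 6, TWIST1, at 7 to 11 counts per knockdown library, passed the filter through control libraries alone, so a fall was the only call open to it. SPARC rose 1.41-fold and LGALS1 1.3-fold (edgeR adjusted p 2.91e-10 and 1.01e-06), while CDH2, the N-cadherin gene, had a log2 fold change of -1.92 and FN1, the fibronectin gene, of -0.14 (edgeR adjusted p 2.34e-11 and 0.0322). FN1 did not pass without control replicate 1, control replicate 2 or knockdown replicate 3 (edgeR adjusted p 0.153, 0.0772 and 0.162). Of 12 neural progenitor genes 7 were tested, 1 rose and 3 fell (median log2 fold change -0.04). PAX6 was the higher gene (log2 fold change 0.17 ± 0.06 SE, edgeR adjusted p 0.0196), with an adjusted p of 0.0779 without control replicate 2 and 0.0912 without knockdown replicate 1. NCAM1, a neural adhesion gene, fell from 11 ± 0.78 to 6.6 ± 0.326 CPM (means of 3 libraries ± SD), with a log2 fold change of -0.73 ± 0.11 SE (edgeR adjusted p 3.37e-05). The other lower genes were MSI1 and SOX2, and SOX2 did not pass in DESeq2's Wald test (adjusted p 0.0555). Of 20 colonocyte differentiation genes 10 had no read in any library and 4 were tested, of which CEACAM1 rose and CA2 fell. In DESeq2's Wald test CEACAM1 did not pass (adjusted p 0.102).

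The genes with the pattern closest to that of NES, over 6 libraries and by the mean absolute difference of log2 CPM centred on each gene, were CMTR2 (0.0133), TLE3 (0.0143) and ZAP70 (0.0143). Closest to INA were DZIP1 (0.168), HS6ST2 (0.188) and XIST (0.211). With 2 groups of 3 libraries, this likeness is mostly a likeness in fold change.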

How the data were processed

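Counts per gene symbol were deposited by the authors as whole numbers, and a second deposited table holds a normalized signal, which equals those counts divided by 1 constant per library (0.847 to 1.25) for the 16213 genes with at least 10 counts in all. The submitters' processing notes name STAR 2.6.1a, Salmon, DESeq2 and the build hg19, with no role or order; the counting tool, strand setting and annotation are not given in the sources used here. Per the labels, libraries came from 1000 ng of total RNA. Every column could be matched to a sample by its description.

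The counts were tested with edgeR 4.0.16 in R 4.3.3 (TMM factors, filterByExpr, quasi-likelihood F-test, group as the only term), and p-values were adjusted by Benjamini-Hochberg over all 13832 tested genes. The SE of a log2 fold change is its size divided by the square root of F. Depth ranged from 11816973 to 18114656 counts. Amplified reads are not independent molecules, so a limit from counts covers counting error only.

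The genes of the set, the lists and the tests were chosen with earlier results of these data known. Named list genes are up to 2 higher and 2 lower genes past the threshold, by fold change, with a mean of at least 100 counts; all others were named after their values were seen. Alternatives were other scalings, filters and tests (DESeq2 1.42.0, limma 3.58.1 with voom or on log2 of the normalized signal plus 1), thinned counts, a correction for transcript length, a replicate block and leaving out each library. Gene locations and lengths come from GENCODE version 44 lifted to GRCh37, and 97.6% of tested genes had a length. 1 marker gene is not reported here. The scripts were tested on simulated data.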

Additional observations from a re-analysis of the deposited data

How the results depend on the processing

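Of 159 alternative values for the 8 tested genes of the set, 146 kept their direction and side of the threshold. The exceptions were KRT8 (with upper-quartile factors -0.08, edgeR adjusted p 0.0475, and the 2 fits given above), KRT18 (library size alone) and KRT23, which was never past the threshold and changed sign in 9 fits: 0.0001 with DESeq2 size factors, 0.0097 without the filter, 0.0063 in DESeq2's Wald test, 0.0047 in limma on the normalized signal, 0.0118 after the length correction, 0.01 after it with the replicate block, and, of the fits without 1 library (-0.0255 to 0.0311), 0.0075, 0.0158 and 0.0311. Over the alternatives KRT19 ran from -0.51 to -0.43, KRT80 from -0.48 to -0.42, VIM from -0.16 to -0.11, NES from 0.23 to 0.28 and INA from -2.05 to -1.46. Of 380 counts over the lists, 344 stayed within 1.5 times the main count. From 4 to 7 genes of the set passed, 4 where a mean of at least 50 counts, which drops INA, was required. KRT7 passed the filter in 4 of the fits that left out a library (log2 fold change -1.76 to -1.46). It passed there through control libraries alone, where it was higher, so the direction was set by the filter and adds no support. Of all genes, 5329 passed and 3604 in DESeq2's Wald test, where 1654 against 2653 were lower; the cause was not tested. Leaving out 1 replicate gave 4319 to 5256 genes. With the replicate block 4862 genes passed, and of the set the same count, 5. The numbers were not taken to pair the samples, since no label says that they do. Deviations of same-numbered libraries had correlations of 0.11, 0.14 and -0.12, and with 3 libraries a group these cannot decide whether the samples pair. The block took KRT10 to an adjusted p of 0.0525. INA and KRT7 rest on few counts, which limits their precision.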

Other observations

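KRT5 was the keratin gene with the most counts, 18463 to 26797 per library, and took 0.145% to 0.158% of all counts. KRT14, its usual type I partner in basal epidermal cells, had 1 count in control replicate 1 and 0 in the other 5 libraries, KRT16 and KRT17 had at most 3 counts in any library, and KRT15 had 18 to 30. The abundant type I keratin in these cells was KRT18. Summed per kb of transcript, all 28 type I keratins reached 0.823 times the level of all 26 type II keratins in control, while KRT18 alone was at 1.29 ± 0.0245 times the level of KRT8 (SD, n = 3). Together KRT5, KRT8 and KRT18 took 0.354% to 0.386% of the counts of a library. Of 54 keratin genes, which leave out KRT222, 14 had no read in any library. These values were looked up after the levels of the set were seen.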
